A study of Mus musculus with 8 samples.

Results

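The glucocorticoid receptor gene Nr3c1 and 9 genes that glucocorticoids induce in many tissues, Fkbp5, Tsc22d3, Dusp1, Klf9, Zbtb16, Sgk1, Fam107a, Mt1 and Mt2, were followed in mouse liver. They were taken by gene symbol, and all 10 were found among the 25010 genes of the RNA-Seq table. The livers came from 8-week-old mice on a C57BL/6 background, fed chow and fasted for 4 to 6 h, and RNA was taken from the left lobe. WT mice carried both liver X receptor genes, and LXRDKO mice lacked both, LXRα (Nr1h3) and LXRβ (Nr1h2), in the whole body (Lxrα−/− Lxrβ−/−). The deletion is therefore not limited to hepatocytes or to adult life. There were 2 livers of each genotype, and neither sex nor the time of day is given in the sources used here. The series also holds 2 ATAC-Seq libraries of each genotype, which were not analysed here.

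The libraries held between 55772659 and 72842744 reads on genes. Nr1h3 was at 5785 and 5322 normalized counts in WT liver against 1712 and 1826 in LXRDKO liver, and Nr1h2 had 2987 and 3110 against 925 and 1003 (adjusted P = 0.0147 for each, limma), so both targeted genes were lower in every LXRDKO liver, and the reads that were left are not assigned to exons in a count per gene. Of 8 hepatocyte markers, 7 were listed under their symbols and none passed the test in limma, with Alb (albumin) at 4940806 and 5959085 normalized counts in WT liver against 5214024 and 4644569 in LXRDKO liver.

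The glucocorticoid receptor is a nuclear receptor that waits in the cytosol in a complex with HSP90 and its co-chaperones. When corticosterone, the main glucocorticoid of the mouse, binds to it, the receptor enters the nucleus and binds DNA as a pair of molecules at glucocorticoid response elements (GREs), which are inverted repeats of a short half-site. In liver it is best known for raising genes of gluconeogenesis and amino acid breakdown during fasting and stress and for damping inflammatory genes. Fkbp5 is a feedback gene, since its protein FKBP51 holds the receptor complex in a state that binds hormone less well. The metallothionein genes Mt1 and Mt2 answer to glucocorticoids and also to zinc and cadmium, through the metal-sensing factor MTF-1 and its metal response elements (MREs).

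Sequences just upstream of the annotated start sites are shown for the members whose levels differed most between genotypes and for Sgk1, which carries a complete GRE. Each is the 250 bases before a RefSeq start site on GRCm38.p6, written 5′ to 3′ on the strand of the gene, and capitals mark every match to the GRE half-site AGAACA, the MRE core TGCACNC or TGCGCNC, or the CCAAT box that NF-Y binds, on either strand.
Fkbp5 (chr17:28486150-28486399, minus strand): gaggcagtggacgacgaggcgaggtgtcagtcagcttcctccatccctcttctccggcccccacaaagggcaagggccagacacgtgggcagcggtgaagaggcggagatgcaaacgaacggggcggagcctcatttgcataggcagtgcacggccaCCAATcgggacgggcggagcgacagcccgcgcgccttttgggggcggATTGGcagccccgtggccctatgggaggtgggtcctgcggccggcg
Fam107a (chr14:8309780-8310029, minus strand): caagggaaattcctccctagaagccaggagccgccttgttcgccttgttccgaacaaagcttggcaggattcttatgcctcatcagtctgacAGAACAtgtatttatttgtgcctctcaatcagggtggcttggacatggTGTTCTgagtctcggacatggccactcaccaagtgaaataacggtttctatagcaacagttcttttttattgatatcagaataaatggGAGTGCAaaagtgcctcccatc
Sgk1 (chr10:21993640-21993889, plus strand): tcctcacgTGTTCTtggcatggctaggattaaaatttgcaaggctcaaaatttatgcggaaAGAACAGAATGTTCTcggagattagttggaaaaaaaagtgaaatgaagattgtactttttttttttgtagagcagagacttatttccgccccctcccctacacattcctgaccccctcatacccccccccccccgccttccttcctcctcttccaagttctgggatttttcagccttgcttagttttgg
Mt1 (chr8:94178839-94179088, plus strand): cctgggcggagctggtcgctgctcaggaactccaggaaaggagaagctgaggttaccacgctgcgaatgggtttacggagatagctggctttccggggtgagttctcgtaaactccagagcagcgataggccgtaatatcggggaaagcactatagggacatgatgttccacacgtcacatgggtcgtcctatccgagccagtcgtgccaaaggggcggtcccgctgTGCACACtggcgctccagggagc
Mt2 (chr8:94172368-94172617, plus strand): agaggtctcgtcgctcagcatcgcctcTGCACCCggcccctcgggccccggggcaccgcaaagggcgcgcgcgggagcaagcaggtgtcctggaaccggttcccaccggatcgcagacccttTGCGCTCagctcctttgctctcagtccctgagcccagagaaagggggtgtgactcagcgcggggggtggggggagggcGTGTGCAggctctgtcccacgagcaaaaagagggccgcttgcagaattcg

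The Fkbp5 window lies inside a longer Fkbp5 transcript but outside its exons, and its only matches are 2 CCAAT boxes, at −93 to −89 and −46 to −42 from the start site. The Fam107a window precedes its downstream start site, with 16 bases in an exon of a neighbouring transcript of the gene, and holds GRE half-sites at −158 and −110 that stand apart from each other, plus 1 MRE core at −22. The Sgk1 window precedes the fifth of 6 start sites, in an intron of the longer transcripts. It holds the full palindrome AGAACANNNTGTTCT at chr10:21993701-21993715, from −189 to −175, which contains 2 of its 3 half-sites. This palindrome was found in 3 of 32851 windows of this length, or 0.00913%.

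Mt1 and Mt2 are neighbours on chromosome 8 and are read in the same direction from start sites 6471 bases apart. The Mt2 window holds 3 MRE cores, at −223, −128 and −50, and lies wholly in an exon of Gm45774, an antisense transcript. The Mt1 window holds 1, at −23. GENCODE M21 lists further start sites downstream, at 122 and 152 bases for Mt1 and at 46 and 242 bases for Mt2, where no bases were searched. Among all windows, 21.4% held an MRE core, 16.1% a GRE half-site and 33.8% a CCAAT box. Of the 8 members with a window, 3 held a GRE half-site (Tsc22d3, Sgk1 and Fam107a), beside 18.2% of all genes with a window. These genes have 3, 6 and 3 windows in that order, while each other member has 1. More windows give more places for a match, so shares per gene are not a like comparison. An MRE core was held by 3 (Fam107a, Mt1 and Mt2), beside 23.8% of genes, and a CCAAT box by 3 (Fkbp5, Klf9 and Sgk1), beside 37.5%. No window of a member held the LXR-type DR4 repeat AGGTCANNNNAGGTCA. Zbtb16 had no entry, and no sequence is shown for Nr3c1. These matches describe letters in short windows and say nothing of binding.

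**Figure D1:**
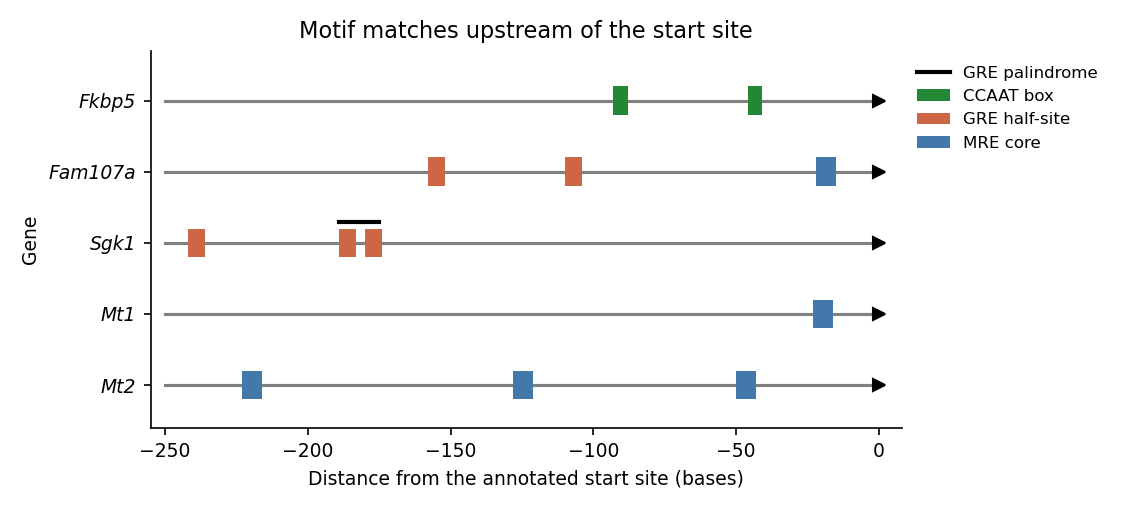
Positions of motif matches, as the distance in bases from the annotated start site (arrowhead), in the 250 bases upstream of 1 start site each of Fkbp5, Fam107a, Sgk1, Mt1 and Mt2. Coloured boxes are GRE half-sites, MRE cores and CCAAT boxes, and the black bar is the full GRE palindrome, which only Sgk1 holds among these windows, while MRE cores lie upstream of Mt2 (3), Mt1 (1) and Fam107a (1).

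Of the 10 genes, 5 were higher in both LXRDKO livers than in either WT liver (Fkbp5, Fam107a, Zbtb16, Mt1 and Mt2), beside 21.7% of the 15578 genes tested, and none was lower in both, beside 23.0%. Expression was compared as log2(normalized count + 1) with limma across every gene that averaged 10 normalized counts or more, a filter that all 10 passed in each genotype. At an adjusted P under 0.05, Fkbp5 and Fam107a were higher in LXRDKO liver, 2 of 10 genes beside 0.135% of all genes tested (0.321% in either direction), and no member was lower, beside 0.186%. DESeq2 on the recovered reads also called Zbtb16, giving 3 of 10 beside 1.56% of 15797 genes in that direction (3.59% in either), and edgeR called only Fkbp5. The median log2 fold change of the 10 genes was 1.01, and that of all genes tested was −0.0046. The genes were chosen with earlier results of these data known, so these counts are not independent evidence of a direction.

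**Figure D2:**
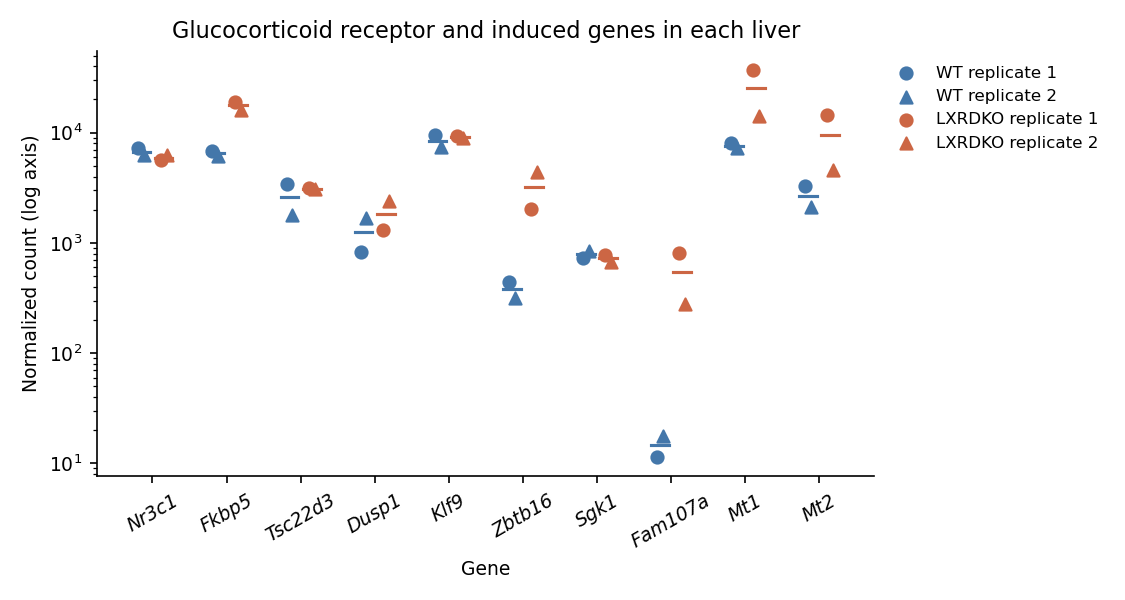
Normalized count of each gene (log axis) in each liver, with WT in blue, LXRDKO in orange, replicate 1 as circles and replicate 2 as triangles, and a line at the mean of each pair. The LXRDKO points of Fkbp5, Zbtb16, Fam107a, Mt1 and Mt2 lie above both WT points, and those of the other 5 genes overlap them.

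The receptor gene itself, Nr3c1 (chromosome 18, minus strand), was at 7227 and 6221 normalized counts in WT liver against 5597 and 6277 in LXRDKO liver. The groups overlapped, and the log2 fold change was −0.18 (standard error, SE, 0.12, 95% interval −0.46 to 0.11, adjusted P = 0.591, limma). Differences in receptor message that lie within this interval are not resolved by 2 livers a genotype.

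Fkbp5 (chromosome 17, 28399094 to 28517527, minus strand, GENCODE M21) was at 6870 and 6116 normalized counts in WT liver against 19131 and 16133 in LXRDKO liver. The pairs of livers were far apart, and each pair lay close together, within 1.12-fold in WT and 1.19-fold in LXRDKO. The ratio of means was 2.72, with a log2 fold change of 1.44 (SE 0.12, 95% interval 1.13 to 1.74, adjusted P = 0.0257 in limma, 9.52e-18 in DESeq2 and 0.0307 in edgeR). Without LXRDKO replicate 1 the log2 fold change was 1.32 (adjusted P = 0.146), and without LXRDKO replicate 2 it was 1.56 (adjusted P = 0.0742). Fkbp5 was called in 13 of the 16 alternative analyses.

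Tsc22d3 encodes GILZ, a leucine-zipper protein through which glucocorticoids restrain NF-κB and AP-1. It was at 3404 and 1794 normalized counts in WT liver against 3129 and 3069 in LXRDKO liver. The LXRDKO livers lay between the WT livers, which differed 1.90-fold from each other, and the log2 fold change of 0.33 (SE 0.29, 95% interval −0.39 to 1.04) did not pass the test (adjusted P = 0.698, limma). The direction rested on 1 library, since the log2 fold change was −0.14 without WT replicate 2 (adjusted P = 0.754) and 0.79 without WT replicate 1 (adjusted P = 0.0422).

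Dusp1 encodes the phosphatase MKP-1, which switches off p38 and JNK. It was at 821 and 1687 normalized counts in WT liver against 1298 and 2380 in LXRDKO liver, so that replicate 2 was the higher liver in both genotypes and the groups overlapped. The log2 fold change was 0.58 (SE 0.41, 95% interval −0.45 to 1.61, adjusted P = 0.630, limma), and it ranged from 0.059 to 1.10 when each library was left out in turn. The immediate early genes Jun (781 and 1454 in WT, 983 and 2641 in LXRDKO) and Btg2 (486 and 850 in WT, 854 and 2363 in LXRDKO), picked after their values were seen, were also higher in replicate 2 of both genotypes, as were 4 of the 10 immediate early genes read, these included, while the other 6 were not, and their part in the Dusp1 values was not tested. Dusp1 shares its span with Ergic1 on the opposite strand, which had 5654, 4840, 4495 and 4280 normalized counts in the same order of livers, and whether the counting used strand is not given in the sources used here.

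Klf9, a Krüppel-like factor that glucocorticoids and thyroid hormone both induce, was at 9523 and 7428 normalized counts in WT liver against 9282 and 8967 in LXRDKO liver. Both LXRDKO livers lay between the WT livers. Its log2 fold change was 0.12 (SE 0.14, 95% interval −0.22 to 0.46, adjusted P = 0.782, limma) and turned to −0.062 without WT replicate 2.

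Zbtb16 encodes PLZF, a zinc-finger transcription factor that glucocorticoids induce strongly in several cell types and that also marks natural killer T cells and innate lymphoid cells. It was at 443 and 315 normalized counts in WT liver against 2014 and 4353 in LXRDKO liver. Both LXRDKO livers were well above both WT livers, although they differed 2.16-fold from each other. The ratio of means was 8.41, with a log2 fold change of 2.98 (SE 0.37, 95% interval 2.05 to 3.92). Limma did not call it (adjusted P = 0.0615) and edgeR did not either (adjusted P = 0.0709), while DESeq2 did (adjusted P = 1.63e-05). Without WT replicate 1 the limma value was 3.23 (adjusted P = 0.0150), and without WT replicate 2 it was 2.74 (adjusted P = 0.0320). Over all 4 such fits it ran from 2.43 to 3.54, with adjusted P up to 0.112 when an LXRDKO liver was left out, and Zbtb16 was called in 3 of the 16 alternative analyses.

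Because Zbtb16 marks lymphoid cells, a list of 12 markers of T, natural killer T and innate lymphoid cells was set beside it. These markers summed to 792 and 849 normalized counts in WT liver against 867 and 641 in LXRDKO liver. None of the 10 that could be tested was called by limma, and DESeq2 called 1 lower (Il2rb), beside 2.03% of all genes. Of the 10, 8 had a fold change below 0, and no marker was at 0 in any liver. Cd3e, a T cell receptor subunit, was at 39.9 and 66.2 normalized counts in WT liver against 28.5 and 23.6 in LXRDKO liver. In a bulk sample, fewer or more cells of a type and less or more RNA per cell cannot be told apart, and the part of lymphoid cells in the Zbtb16 values was not tested.

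Sgk1 encodes a kinase that raises sodium transport and is a classic target of corticosteroid receptors. It was at 737 and 848 normalized counts in WT liver against 782 and 668 in LXRDKO liver. The groups overlapped, with a log2 fold change of −0.13 (SE 0.14, 95% interval −0.48 to 0.22, adjusted P = 0.768, limma). The full GRE palindrome lies upstream of only 1 of the 6 Sgk1 start sites, and a count per gene does not tell these apart. The part of this palindrome in the Sgk1 values was not tested.

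Fam107a encodes an actin-binding protein, also known as DRR1, that stress and glucocorticoids induce in brain. It had only 11.4 and 17.8 normalized counts in the WT livers, from 10 and 21 reads, and 806 and 278 in the LXRDKO livers, from 849 and 259 reads. Both LXRDKO livers were far above both WT livers, and they differed 2.90-fold from each other. The ratio of means was 37.1, and the log2 fold change was 4.96 (SE 0.54, 95% interval 3.61 to 6.30, adjusted P = 0.0463, limma), a value that 0.0257% of the genes tested exceeded. DESeq2 called it (adjusted P = 1.17e-07) and edgeR did not (adjusted P = 0.0641). Without LXRDKO replicate 1 the log2 fold change was 4.19 (adjusted P = 0.160), and without LXRDKO replicate 2 it was 5.72 (adjusted P = 0.0702). Fam107a was called in 8 of the 16 alternative analyses.

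Mt1 and Mt2 encode small cysteine-rich proteins that bind zinc and copper. Mt1 was at 8009 and 7238 normalized counts in WT liver against 36921 and 14013 in LXRDKO liver. Mt2 was at 3271 and 2109 in WT liver against 14314 and 4538 in LXRDKO liver. For both genes LXRDKO replicate 1 was highest, LXRDKO replicate 2 came next, and the WT livers were lowest.

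The LXRDKO livers differed from each other 2.63-fold in Mt1 and 3.15-fold in Mt2. The log2 fold changes were 1.58 for Mt1 (SE 0.43, 95% interval 0.52 to 2.64) and 1.62 for Mt2 (SE 0.53, 95% interval 0.29 to 2.94). Neither passed the test, with adjusted P = 0.232 and 0.304 in limma and 0.139 and 0.298 in DESeq2. The 2 LXRDKO livers gave different sizes, since the log2 fold change of Mt1 was 0.88 without LXRDKO replicate 1 (adjusted P = 0.232) and 2.28 without LXRDKO replicate 2 (adjusted P = 0.0490), and that of Mt2 was 0.79 and 2.45.

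The 2 genes kept a similar proportion to each other in every liver. Without regard to length, there were 2.45 and 3.43 counts of Mt1 for each count of Mt2 in WT liver against 2.58 and 3.09 in LXRDKO liver. None of the 50-base stretches of the Mt1 transcripts occurred in another gene, so reads of the length used can be told apart between them. Of the Mt2 stretches, 45.8% were shared with Gm45774, the antisense transcript that covers part of it, which was at 38.8 and 27.2 normalized counts in WT liver against 168 and 35.4 in LXRDKO liver.

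**Figure D3:**
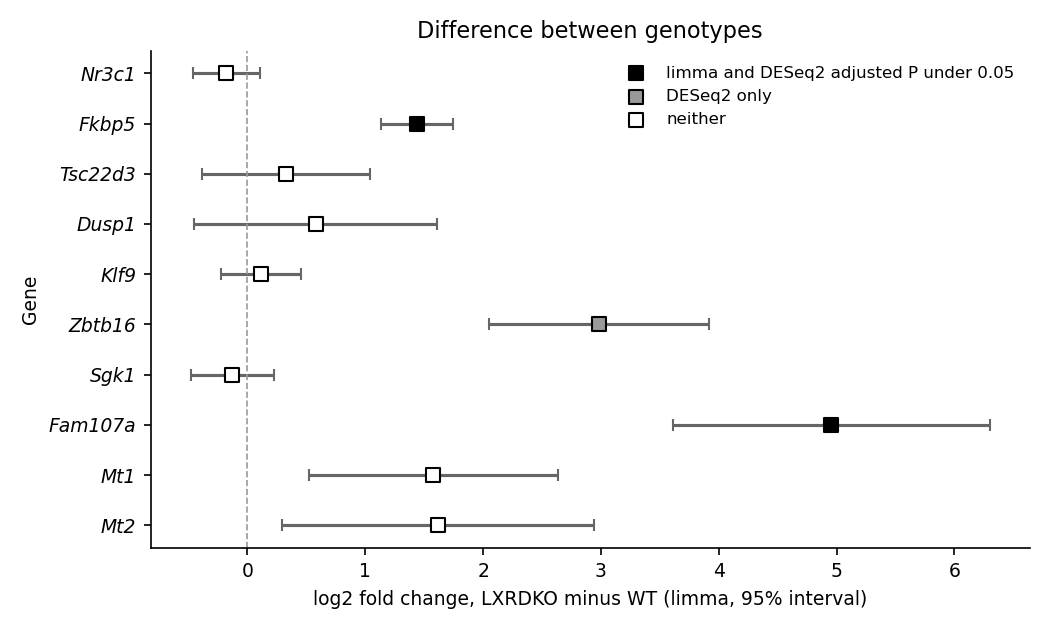
Log2 fold change of each gene, LXRDKO minus WT, from limma on log2(normalized count + 1), with 95% intervals over 2 livers a genotype. Filled squares (Fkbp5 and Fam107a) passed an adjusted P of 0.05 in limma and DESeq2, the grey square (Zbtb16) in DESeq2 only, and the intervals of Nr3c1, Tsc22d3, Dusp1, Klf9 and Sgk1 include 0.

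The levels of the 10 genes were ordered per kilobase of annotated exon. In WT liver the order of mean normalized counts per kilobase ran from Mt1 (6119) and Mt2 (4575) through Klf9 (1760), Nr3c1 (875), Fkbp5 (686), Tsc22d3 (599), Dusp1 (379) and Sgk1 (162) to Zbtb16 (71.7) and Fam107a (3.78). The WT values of Fkbp5 and Tsc22d3 overlapped, as did those of Tsc22d3 and Dusp1, so the order of these neighbours is not resolved. In LXRDKO liver Fkbp5 rose to 1862 per kilobase, where its values overlapped those of Klf9 (1895), while Nr3c1 was at 773. Zbtb16 stood at 603, with its livers at 381 and 824, and overlapped Dusp1 (555), Tsc22d3 (714) and Nr3c1. Fam107a stood at 140.0, overlapping Sgk1 (148), and Mt1 and Mt2 overlapped as well. The order of genes that overlap is not resolved in LXRDKO liver either. Fam107a had the lowest mean of the 10 per kilobase in both genotypes.

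The livers within a genotype were not alike in these genes. The median absolute difference between the 2 WT livers was 0.42 on the log2 scale for the 10 genes and 0.18 for all genes tested, and between the 2 LXRDKO livers it was 0.56 and 0.17. In LXRDKO, 4 of the 10 genes (Zbtb16, Fam107a, Mt1 and Mt2) differed by over 1 between the livers, beside 4.39% of all genes, and in WT 1 did (Dusp1), beside 6.28%. The livers did not rank the same way for these genes. LXRDKO replicate 1 was higher than replicate 2 for Fam107a, Mt1 and Mt2, while for Zbtb16 and Dusp1 replicate 2 was higher. For Fkbp5, Zbtb16 and Fam107a the genotype difference exceeded the difference within either genotype, for Mt1 it exceeded it by little, and for Mt2 it did not.

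**Figure D4:**
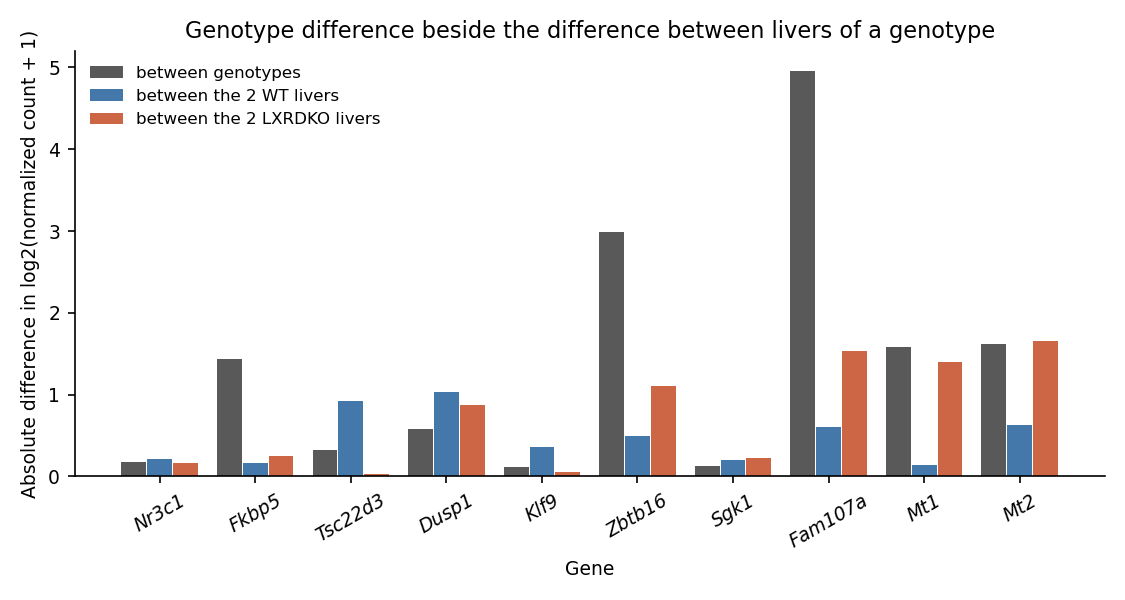
Absolute difference in log2(normalized count + 1) between genotypes (grey, size of the limma log2 fold change), between the 2 WT livers (blue) and between the 2 LXRDKO livers (orange) for each gene. The grey bar is the tallest for Fkbp5 (1.44), Zbtb16 (2.98), Fam107a (4.96) and Mt1 (1.58), while the LXRDKO livers differ by 1.66 in Mt2, beside a genotype difference of 1.62.

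Other genes of the receptor's complex and its cofactors were read from a list of 16. Of these, 1 passed the test, Nr3c2, and it was lower in LXRDKO, a direction called for 0.186% of all genes tested. Nr3c2 encodes the mineralocorticoid receptor, which binds corticosterone as well as aldosterone and shares response elements with the glucocorticoid receptor. It was at 1661 and 1760 normalized counts in WT liver against 784 and 780 in LXRDKO liver, a log2 fold change of −1.13 (SE 0.10, adjusted P = 0.0302, limma). The call was lost without LXRDKO replicate 1 (−1.13, adjusted P = 0.160) or replicate 2 (−1.12, adjusted P = 0.137).

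The other 15 genes of the list did not pass. Fkbp4, which encodes FKBP52, the co-chaperone that competes with FKBP51, was at 9773 and 6909 normalized counts in WT liver against 6236 and 6298 in LXRDKO liver (log2 fold change −0.39, SE 0.17, adjusted P = 0.404). Hsp90ab1, the constitutive HSP90, had 54757 and 44127 against 40382 and 41252 (log2 fold change −0.27, SE 0.14, adjusted P = 0.496). The list's median log2 fold change was −0.27, and 8 of its 16 genes were lower in both LXRDKO livers than in either WT liver, beside 23.0% of all genes.

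A list of 8 genes that make, carry or break down corticosteroids had 7 above the filter, and none passed in limma. Hsd11b1, the enzyme that regenerates corticosterone inside hepatocytes, was at 30067 and 25167 normalized counts in WT liver against 30962 and 27805 in LXRDKO liver, which overlapped (log2 fold change 0.093, SE 0.13). Serpina6, corticosteroid-binding globulin, was at 14804 and 24235 in WT liver against 10910 and 9083 in LXRDKO liver. Srd5a1, a steroid 5α-reductase that clears glucocorticoids, was at 5814 and 6692 in WT liver against 4339 and 3638 in LXRDKO liver.

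Serpina6 and Srd5a1 were each lower in both LXRDKO livers, with log2 fold changes of −0.93 (SE 0.24, adjusted P = 0.218) and −0.65 (SE 0.13, adjusted P = 0.136) in limma. DESeq2 called these and no other gene of the list (adjusted P = 0.00231 and 0.00372), in a direction that it called for 2.03% of all genes. Of the 7 tested, 3 were lower in both LXRDKO livers than in either WT liver, beside 23.0% of all genes, and 1 was higher, beside 21.7%. The third lower gene was H6pd (48890 and 39596 in WT against 36178 and 29854 in LXRDKO, log2 fold change −0.42, SE 0.16). The higher gene was Akr1d1 (9614 and 8978 in WT against 10708 and 13000 in LXRDKO, log2 fold change 0.34, SE 0.12).

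A list of 24 further genes that glucocorticoids induce, many of them genes of hepatic metabolism, had none past the test in limma, and 7 that DESeq2 called, all higher in LXRDKO, beside 1.56% of all genes. In 17 of the 24, both LXRDKO livers were above both WT livers, beside 21.7% of all genes, and 2 were below. The median log2 fold change was 0.34. Lpin1, a phosphatidate phosphatase and coactivator of fasting genes, was at 15010 and 8975 normalized counts in WT liver against 47130 and 51115 in LXRDKO liver (log2 fold change 2.08, SE 0.24, adjusted P = 0.0545 in limma and 9.69e-16 in DESeq2). Limma called it when either WT library was left out (2.45 and 1.71, adjusted P = 0.00134 and 0.00653). Ddit4, an inhibitor of mTORC1, was at 348 and 160 in WT liver against 712 and 823 in LXRDKO liver (log2 fold change 1.69, SE 0.36, adjusted P = 0.155 in limma and 0.000185 in DESeq2).

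The enzymes of amino acid breakdown on this list stood higher in each LXRDKO liver. Tdo2, which opens tryptophan breakdown, was at 105294 and 107706 normalized counts in WT liver against 174105 and 178312 in LXRDKO liver (log2 fold change 0.73, SE 0.15, adjusted P = 0.151 in limma and 3.92e-07 in DESeq2). Sds, serine dehydratase, had 10837 and 18030 against 32104 and 26549, and Tat, tyrosine aminotransferase, had 69293 and 71976 against 95645 and 127585. Their log2 fold changes were 1.06 (SE 0.25, adjusted P = 0.189) and 0.65 (SE 0.18, adjusted P = 0.242) in limma, and DESeq2 called both. Beside Lpin1, Ddit4, Tdo2, Sds and Tat, DESeq2 called 2 more, Cebpd and Lcn2, which were named after their values were seen.

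The gluconeogenic genes differed less. Pck1 was at 221969 and 208089 normalized counts in WT liver against 275635 and 273024 in LXRDKO liver (log2 fold change 0.35, SE 0.19, adjusted P = 0.492, limma). G6pc was at 17336 and 21902 in WT liver against 15403 and 36007 in LXRDKO liver, which overlapped (log2 fold change 0.27, SE 0.39, adjusted P = 0.831). Per1, a clock gene that the receptor induces directly, had 4630 and 4820 against 5824 and 5244 (log2 fold change 0.23, SE 0.095, adjusted P = 0.394), with both LXRDKO livers higher but no call by limma, DESeq2 or edgeR.

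**Figure D5:**
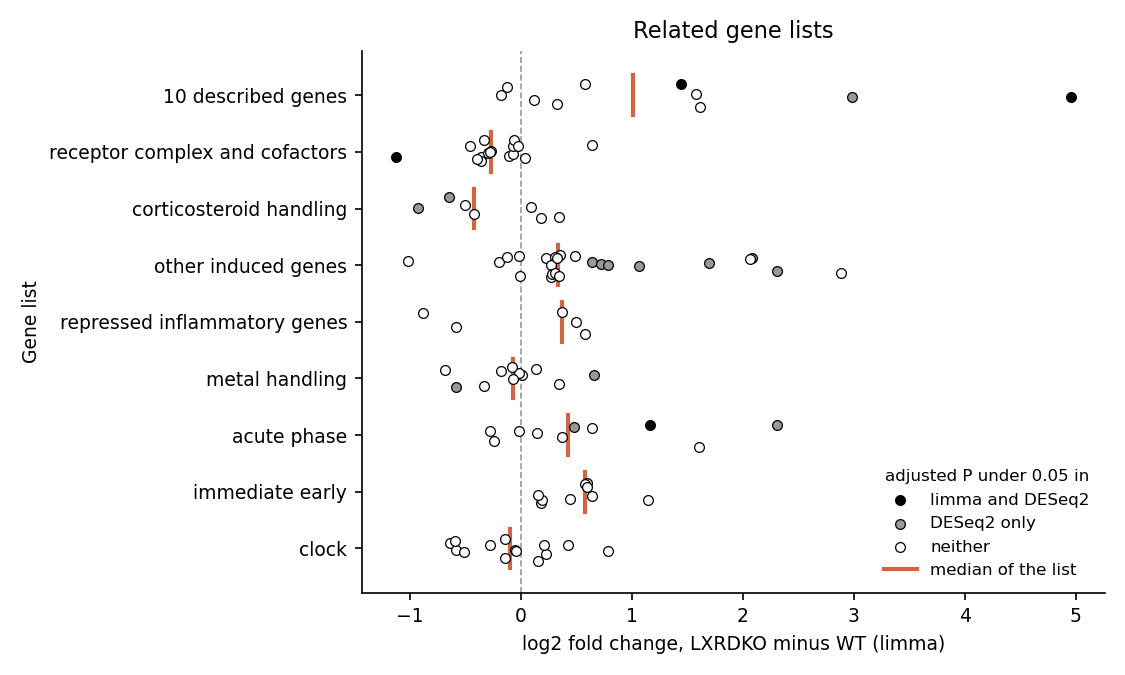
Log2 fold change, LXRDKO minus WT (limma), of every tested gene in the 10 described genes and in 8 related lists, 1 point a gene with vertical position spread for legibility. Orange lines are list medians, which were 1.01 for the 10 genes, 0.58 for immediate early, 0.43 for acute-phase, 0.37 for repressed inflammatory, 0.34 for other induced, −0.072 for metal-handling, −0.10 for clock, −0.27 for receptor complex and −0.42 for corticosteroid-handling genes, and filled points (Fkbp5, Fam107a, Nr3c2 and Orm2) passed an adjusted P of 0.05 in limma.

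Since metals induce the metallothioneins as well, a list of 12 genes of metal handling and oxidative defence was read beside Mt1 and Mt2. Mtf1, which encodes the metal-sensing factor, was at 1484 and 1328 normalized counts in WT liver against 1469 and 1356 in LXRDKO liver (log2 fold change 0.0082, SE 0.11). Slc30a1, a zinc exporter that MTF-1 induces, had 4136 and 4156 against 4090 and 4120 (log2 fold change −0.014, SE 0.083, adjusted P = 0.963), a value that turned to 0.040 when libraries were scaled to their totals.

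Of the 11 metal-handling genes tested, limma called none. DESeq2 called Slc39a4, a zinc importer, higher (3827 and 4272 against 6393 and 6368, log2 fold change 0.66, SE 0.095, adjusted P = 0.0889 in limma) and Gclc, which limits glutathione synthesis, lower (18286 and 20110 against 13856 and 11855, log2 fold change −0.58, SE 0.12, adjusted P = 0.145 in limma). Over all genes tested, limma called 0.135% higher, and DESeq2 called 1.56% higher and 2.03% lower. Lists of acute-phase, immediate early, inflammatory and clock genes were read as well, to be set beside the same shares. Of 10 acute-phase genes, limma called 1, Orm2, an orosomucoid (584 and 654 against 1495 and 1286, log2 fold change 1.16, SE 0.13, adjusted P = 0.0498, and 0.211 or 0.156 without LXRDKO replicate 1 or 2), and DESeq2 also called Hp, haptoglobin (log2 fold change 0.48, adjusted P = 0.0160), and Lcn2, all higher. No gene of 9 tested immediate early genes, 5 tested inflammatory genes that the receptor represses or 14 tested clock genes was called by limma, DESeq2 or edgeR, and at an unadjusted P under 0.05 in limma there were 1, 1 and 7, beside 13.3% of all genes tested. In the clock list 7 of the 14 genes were lower in each LXRDKO liver than in either WT liver and 4 were higher, beside 23.0% and 21.7% of all genes. The median log2 fold changes of the immediate early, inflammatory and clock lists were 0.58, 0.37 and −0.10. All 9 immediate early genes, which react to stress within minutes, had a fold change above 0, as did 7649 of the 15578 genes tested, and in 3 of them both LXRDKO livers were above both WT livers, beside 21.7% of all genes. Their part in the differences described above was not tested.

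Markers of other liver cells also differed between these livers. Of 9 Kupffer cell markers, limma called 4 lower (Clec4f, Cd5l, Marco and Cd163), beside 0.186% of all genes tested. The 9 markers summed to 12955 and 14098 normalized counts in WT liver against 6818 and 3998 in LXRDKO liver, with Timd4 at 0 in 1 LXRDKO liver. Of 8 endothelial markers, 2 were called lower (Kdr and Cdh5), beside the same 0.186%. When libraries were scaled to their totals, neither Kdr (adjusted P = 0.0516, limma) nor the Kupffer marker Marco (adjusted P = 0.0520) was called. Kdr was also not called without the filter on low values (adjusted P = 0.0588, limma). The 8 markers summed to 12359 and 11128 against 8799 and 6961, while Pecam1 was not called (log2 fold change −0.24, SE 0.14, adjusted P = 0.536). Stellate cell markers summed to 18429 and 18876 in WT and 25241 and 26968 in LXRDKO, with 0 of 8 called by limma and 2 by DESeq2, and 7 of the 8 were higher in each LXRDKO liver than in either WT liver, beside 21.7% of all genes. Bile duct markers summed to 2084 and 3599 against 4572 and 5426, with 0 of 6 called by limma and 1 by DESeq2, and all 6 were higher in the same way. The stellate and bile duct calls by DESeq2 were all higher in LXRDKO, a direction that it called for 1.56% of all genes. At an unadjusted P under 0.05 in limma there were 5 stellate and 3 bile duct markers, beside 13.3% of all genes tested. B cell markers summed to 143 and 180 against 127 and 83.6, and neutrophil markers to 99.2 and 119 against 140 and 91.1. All 4 B cell markers but only 2 of the 5 neutrophil markers passed the filter and were tested, and none was called. Of the 4 B cell markers, 3 were lower in each LXRDKO liver than in either WT liver, beside 23.0% of all genes. At an unadjusted P under 0.05 in limma there were 3 B cell markers. The median log2 fold change of the 4 was −1.37, and 1 had a fold change above 0. The part of these cells in the levels of the 10 genes was not tested.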

How the data were processed

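RNA-Seq of the left liver lobe was analysed in 2 WT and 2 LXRDKO mice. Per the study's methods and the submitters' processing notes, the authors sequenced single-end reads of poly(A) libraries from a stranded kit, aligned them to mm10 with STAR 2.6.0c and normalized counts per gene with DESeq2. The read counter and its annotation are not given in the sources used here. The deposited values are this normalized signal. Dividing by the smallest step gave whole reads for 100% of values (tolerance 0.01), from 55772659 to 72842744 a library, where 1 read was worth 0.849 to 1.14 normalized counts. Intervals were built from these livers only, with each gene's variance drawn toward that of other genes.

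Genes that averaged 10 normalized counts or more were tested as log2(value + 1) with limma 3.58.1 and a variance trend in R 4.3.3, fitted over 15578 genes with Benjamini-Hochberg adjustment at 0.05. Fold changes on this scale understate those of low genes. edgeR 4.0.16 and DESeq2 1.42.0 were run on the recovered reads. These fits and the main limma fit were checked on simulated counts, and the other alternatives were not. An exact permutation test of 2 against 2 livers cannot go below P = 0.333. The other alternatives were pseudocounts, filters, scalings, variance models, the replicate number and leaving out each library. Genome positions and exon lengths came from GENCODE M21 (24987 of 25010 identifiers matched), and upstream sequences from RefSeq on GRCm38.p6.

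The 10 genes and the lists beside them were chosen with earlier results of these data known. Named genes were all 10 members, genes of the lists that limma called or that had the smallest DESeq2 adjusted P (up to 4 or 2 a list), and genes fixed by name. Nothing says how the mice were related, so P values speak for these samples only. In limma each gene's variance was drawn toward a trend over all genes tested. Its SE, interval and P value therefore do not rest on its own livers alone. Without the trend the SE of Fkbp5 was 0.15 in place of 0.12 (adjusted P = 0.219, limma).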

Additional observations from a re-analysis of the deposited data

How the results depend on the processing

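With 2 livers a genotype, only large and even differences pass, and a missed call does not show equal levels. Over 16 alternatives, 158 of 160 log2 fold changes of the 10 genes kept their direction. The exceptions were Tsc22d3 and Klf9 without WT replicate 2, and with 1 library left out their values ran from −0.14 to 0.79 and from −0.062 to 0.30. Among other named genes, leaving out 1 library gave −0.035 to 0.22 for Hsd11b1, −0.34 to 0.89 for G6pc and −0.072 to 0.089 for Mtf1, and Slc30a1 turned to 0.040 under scaling to the library total. The median of the 10 genes stayed between 0.83 and 1.20.

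The number of the 10 genes called higher was 2. It was 1 (Fkbp5) with a pseudocount of 8, a filter at a mean of 50, upper-quartile scaling, TMM scaling or edgeR, and 0 without the trend. It ran from 0 to 4 when 1 library was left out. None was called lower under any of these alternatives. The adjusted P of Fam107a lay above 0.05 and at most at 0.0641 in the 5 alternatives that kept only Fkbp5.

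Of the other lists' genes outside the marker lists, 1 was called higher (Orm2) and 1 lower (Nr3c2). The count of genes called higher was 0 with a pseudocount of 0.5 or 8, no filter, a filter at a mean of 50, upper-quartile or TMM scaling or no trend, 3 with the replicate block, 10 in DESeq2, and 0 to 5 when 1 library was left out. The count called lower was 0 without the trend, 4 in DESeq2 and 0 to 2 when 1 library was left out. In those last fits the lone liver of a genotype was taken to vary like the others. Of the Kupffer and endothelial markers, DESeq2 called 6 and 2 lower, beside 2.03% of all genes. Without the trend, limma called 1 Kupffer marker lower, the only gene it called, and 0 endothelial markers.

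Deviations of same-numbered livers from their group means correlated at 0.0031 over all genes tested. A value over all genes does not settle whether the numbers pair the mice for some of them. In the replicate block fit, 90 genes were called in place of 50. Fkbp5 and Fam107a were among them (adjusted P = 0.0138 and 0.0421, limma), and the number of the 10 genes called stayed 2. The SE in this fit was below that of the main fit for Dusp1 (0.11 against 0.41), Mt1 (0.29 against 0.43) and Mt2 (0.24 against 0.53). It was also lower, by less, for Fkbp5 (0.10 against 0.12), Tsc22d3 (0.22 against 0.29), Klf9 (0.12 against 0.14), Zbtb16 (0.368 against 0.375) and Fam107a (0.539 against 0.541). It was above that of the main fit for Nr3c1 (0.13 against 0.12) and Sgk1 (0.16 against 0.14). Over all genes, limma called 50, edgeR 49, DESeq2 567, and limma without the trend 1. Leaving out WT replicate 1 or 2 gave 262 and 157 calls, and leaving out LXRDKO replicate 1 or 2 gave 2 and 8.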
